A study of Mus musculus with 7 samples.

Results

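The enzymes of glycolysis, of the pyruvate branch point and of the tricarboxylic acid (TCA) cycle were followed in CCE, a feeder-free mouse embryonic stem (ES) cell line, during differentiation with retinoic acid, a metabolite of vitamin A that binds nuclear receptors. A list of 39 symbols was looked up in the deposited expression table, and 39 of 39 were found among 12071 symbols. For a symbol with several transcript rows, the row with the highest mean was used. The list was drawn up from the pathway and not from measured values, but with earlier results of these data known.

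The day 0 cells were grown in medium containing LIF (leukemia inhibitory factor), which keeps mouse ES cells undifferentiated, and received DMSO. On days 1, 2, 3, 4, 5 and 6 LIF was withdrawn and retinoic acid was present at 5 µM. Ribosomal-RNA-depleted total RNA was sequenced, with 1 library a day, all from the single line CCE, and nothing in the labels tells if each day was its own culture. The loss of LIF, the retinoic acid and the days of culture coincide, so their parts in a difference from day 0 cannot be told apart. The series title names Zfp217 and the RNA mark m6A, and the labels state no question about metabolism.

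Glycolysis splits glucose into pyruvate with a small yield of ATP. Its committed points are the kinase steps run by hexokinase, phosphofructokinase and pyruvate kinase. Pyruvate can be turned into lactate by lactate dehydrogenase, enter the mitochondrial cycle as acetyl-CoA through the pyruvate dehydrogenase complex, which its kinases (Pdk) switch off by phosphorylation, or be carboxylated to oxaloacetate. Pluripotent cells are known for high rates of glycolysis, and many of its steps are encoded by several isozyme genes used in different tissues.

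Recovered reads, summed over the 15296 transcript rows of each library, lay between 7194325 on day 6 and 17923852 on day 4. A read shared by several transcripts of a gene can be counted more than once in these sums. Of the 7 ES cell markers listed, 7 were in the table and 0 were higher on day 5 than on day 0. Their summed level was 16.01, 14.20, 11.84, 11.24, 11.30 and 10.97 on days 0 to 5 on the log2 scale of scaled reads. Much of the day 5 sum came from Klf4, at 10.34 on day 5 against 8.86 on day 2, with the next highest, Zfp42, at 7.74 on day 5. All 9 of 9 extraembryonic endoderm markers were higher on day 5 than on day 0, with a summed level of 17.61 on day 5 against 13.51 on day 0. Of the 7 fibroblast and smooth muscle markers, 6 were higher on day 5, with a summed level of 15.07 on day 5 against 9.84 on day 0. Markers of red blood cells numbered 0 of 4 in the table. The part of these changes in cell type in the results below was not tested, and in bulk RNA fewer cells of a type and less RNA per cell cannot be told apart.

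Of the 39 enzymes, 37 passed the filter on low values, as did 7242 genes in all. Aldoc and Eno2 did not pass and are given by value only. The main measurement was the slope of a line on day over the 6 libraries of days 0 to 5, in log2 units per day with its standard error (SE). It was tested with limma, and p was adjusted by Benjamini-Hochberg over all 7242 genes. A gene was called at an adjusted p under 0.05. The slope fell for 12 enzymes and rose for 3, and 22 were not called. These shares of 32.4% falling and 8.11% rising stood beside 26.8% falling and 25.7% rising of all genes tested. The median slope was −0.078 over the 37 enzymes and −0.0012 over all genes. The 3 that rose were Hkdc1, Tpi1 and Aco1, the last of which encodes a cytosolic enzyme. The 12 that fell were Hk2, Pfkp, Gapdh, Pgam1, Eno1, Pkm2, Pdk1, Idh3a, Idh3b, Idh3g, Suclg1 and Mdh2. By group, 6 of 14 glycolysis genes fell and 2 rose, 0 of 2 lactate dehydrogenase genes were called (neither at an unadjusted p under 0.05), 1 of 5 pyruvate branch genes fell and 0 rose, and 5 of 16 TCA cycle and isocitrate genes fell and 1 rose. The number that rose was 1 without the day 0 library and 1 without the day 4 library. With the day 6 library added to the line, 0 rose and 2 fell, Pfkp and Pkm2.

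**Figure D1:**
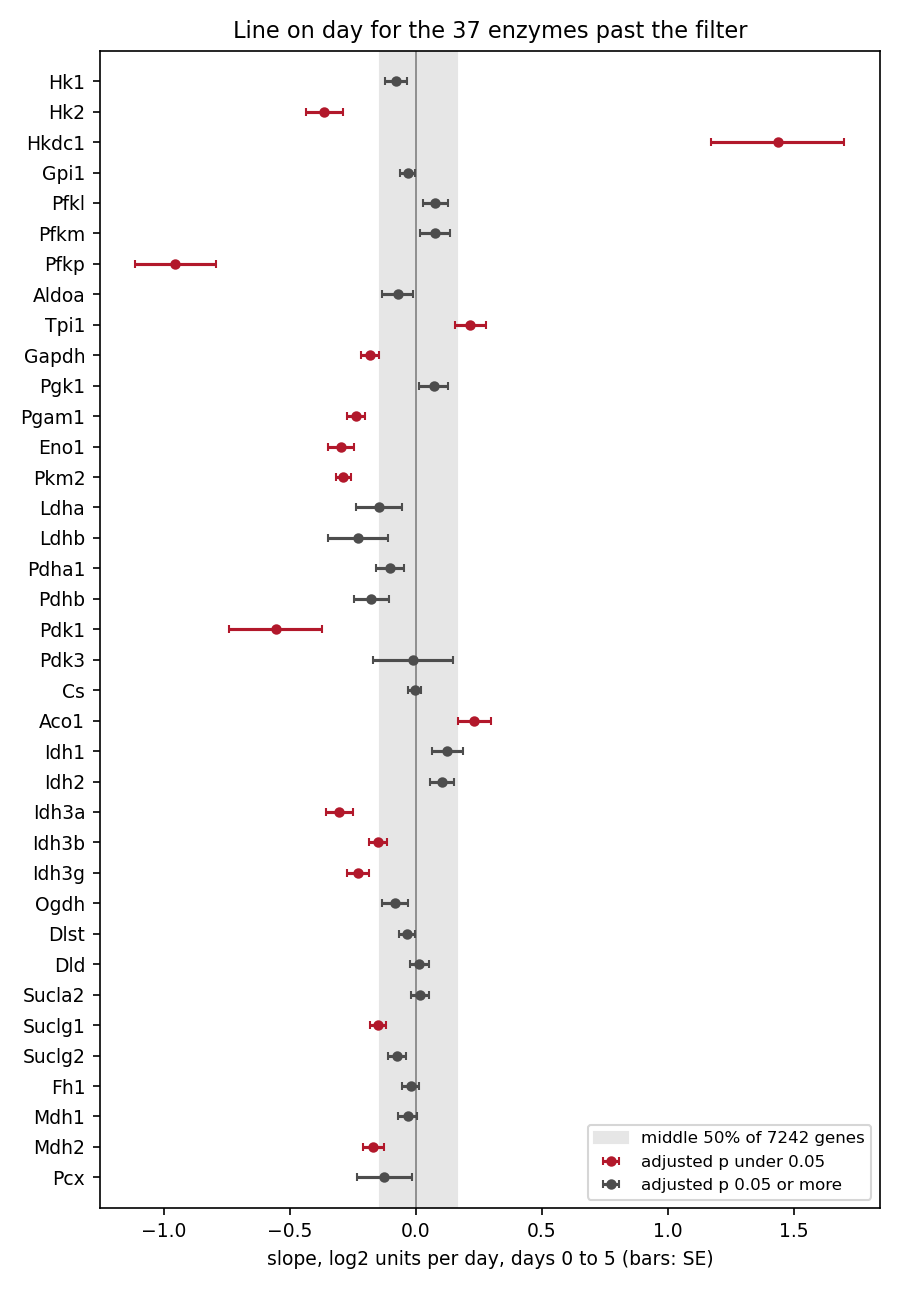
Slope of the line on day over days 0 to 5 for the 37 enzymes past the filter, in pathway order, in log2 units per day with bars for the SE over 6 libraries and a grey band for the middle of all 7242 genes. Hkdc1 at 1.44 and Pfkp at −0.95 lie outermost, and most TCA cycle enzymes lie near 0.

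At the entry to glycolysis the 3 hexokinase genes took different courses. Hexokinases phosphorylate glucose and so trap it in the cell. Hk2 (NM_013820, chromosome 6, 82675020 to 82724448, minus strand of mm9), a hexokinase bound to the mitochondrial outer membrane, had log2 values of 13.78, 12.97, 12.06, 12.35, 12.01 and 11.76 on days 0 to 5. Its level on each later day lay below day 0, and it fell with a slope of −0.36 ± 0.074 (SE, 6 libraries, limma adjusted p = 0.00850), although without day 0 the adjusted p was 0.0510. On day 5 it was 4.06-fold lower than on day 0, with 2892 reads on day 5 and 7308 on day 0. Hkdc1 (NM_145419, chromosome 10, 61845884 to 61885205, minus strand), a gene named for its hexokinase domains, moved the other way. It had 21, 25, 211, 1488, 2949 and 1774 reads on days 0 to 5, which are log2 values of 5.33, 5.43, 8.54, 11.53, 11.67 and 11.05. The levels of days 0 and 1 were close to each other, and those of days 3, 4 and 5 formed a plateau far above them. Its slope was 1.44 ± 0.26 (SE, limma adjusted p = 0.00627). Day 5 was 52.6-fold above day 0, or 5.72 on the log2 scale (95% counting interval 5.10 to 6.41). Hk1 (chromosome 10, 61731602 to 61842656, minus strand), the widely expressed hexokinase, is the neighbour of Hkdc1 on the chromosome. It had log2 values of 10.56, 10.02, 10.13, 10.18, 9.98 and 10.03 and was not called (adjusted p = 0.171).

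Set on a common scale of value per kilobase of transcript, Hk2 held 87.1% of the hexokinase sum on day 0. Its share on days 1 to 5 was 84.6%, 67.0%, 45.5%, 38.9% and 42.1%. The share of Hkdc1 on days 0 to 5 was 0.395%, 0.718%, 9.24%, 40.9%, 48.4% and 40.8%. Hk2 was thus the main hexokinase transcript of the ES cells, and Hk2 and Hkdc1 held similar shares from day 3. The hexokinase sum itself was lower than on day 0 on every later day, by log2 differences of −0.77, −1.34, −0.49, −0.60 and −0.97 on days 1 to 5. These shares are descriptions of 1 library a day, and Hk1 and Hkdc1 are related in sequence, so reads could be shared between them.

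**Figure D2:**
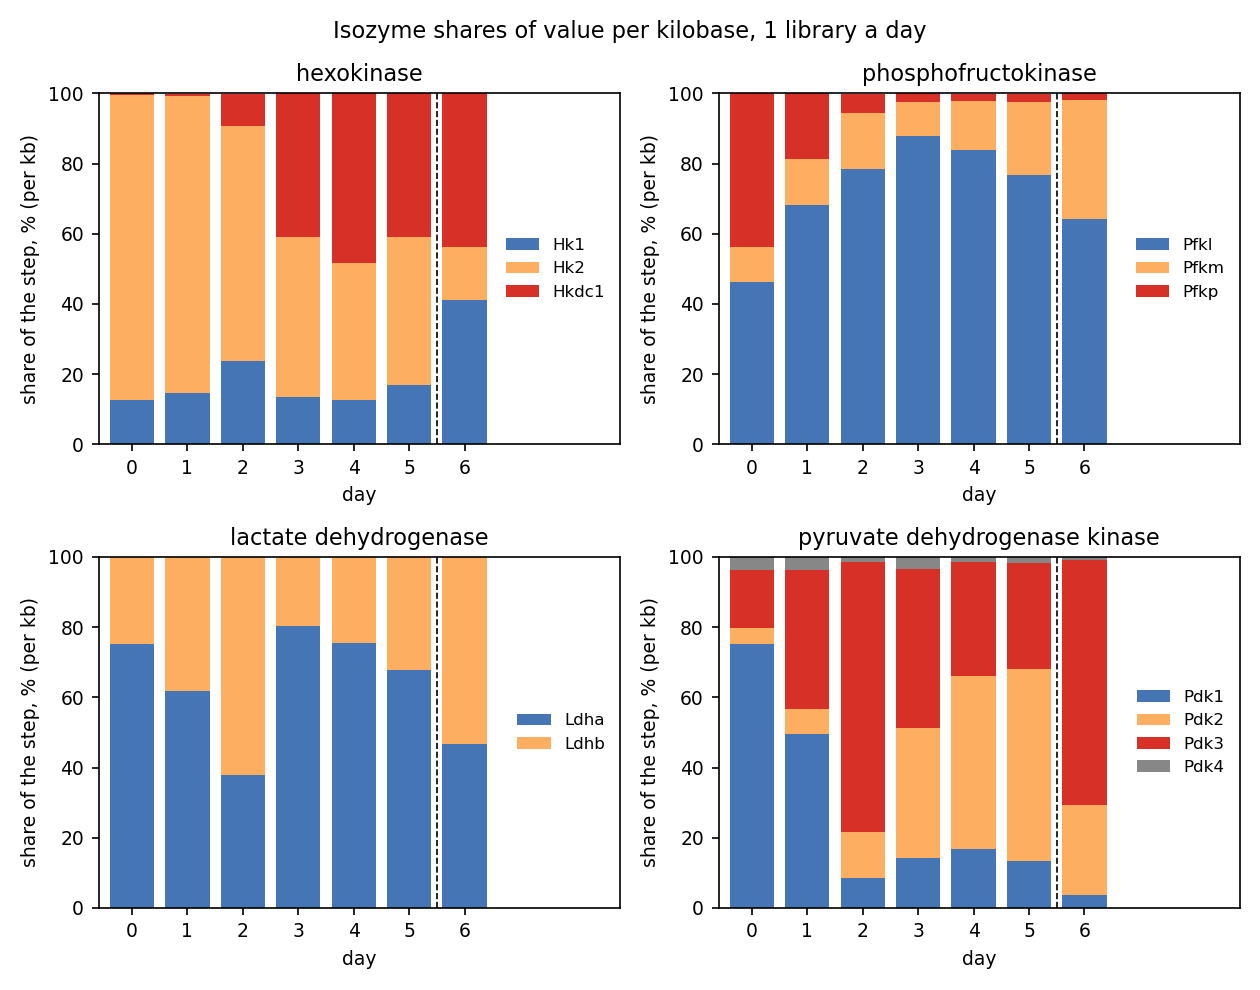
Share of each isozyme in the summed value per kilobase of its step on days 0 to 6, in percent, with 1 library a day and a dashed line before day 6. On day 5 the share of Hk2 was 42.1% against 87.1% on day 0, and that of Pfkp was 2.44% against 43.6%.

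Phosphofructokinase, the main control point of glycolysis, held the steepest fall among the enzymes. Pfkp (NM_019703, chromosome 13, 6579119 to 6647970, minus strand), the platelet isozyme, had log2 values of 12.00, 10.38, 8.39, 7.59, 7.33 and 7.31 on days 0 to 5. Each day stood below the day before, and most of the distance was covered by day 2. Its slope was −0.95 ± 0.16 (SE, limma adjusted p = 0.00477). Day 5 was 25.8-fold below day 0, with 133 reads on day 5 and 2132 on day 0 and a counting interval of −4.95 to −4.43 for the log2 difference of −4.69. Pfkl (chromosome 10, 77449693 to 77472541, minus strand), the liver isozyme, had log2 values of 11.98, 12.15, 12.07, 12.61, 12.53 and 12.19 and was not called (adjusted p = 0.224). Without the day 5 library its slope was 0.16, at an adjusted p of 0.0495. Pfkm, the muscle isozyme, lay between 9.06 on day 3 and 9.93 on day 5 and was not called either (adjusted p = 0.307).

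Per kilobase, Pfkp and Pfkl were near parity on day 0, at 43.6% and 46.2% of the phosphofructokinase sum. The share of Pfkp on days 1 to 5 was then 18.7%, 5.68%, 2.54%, 2.12% and 2.44%. Pfkl held 68.3%, 78.4%, 87.8%, 83.9% and 76.9% on those days. The sum over the 3 genes was lower by −0.40, −0.67, −0.30, −0.31 and −0.53 log2 on days 1 to 5 than on day 0, so it moved far less than Pfkp did. Among the 39 enzymes ordered by value per kilobase, Pfkp was number 39 on day 5 and 23 on day 0, while Hkdc1 was number 26 on day 5 and 39 on day 0.

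The promoters of these isozyme genes are shown because the isozymes of 1 step took different courses. Each run is the 250 bases before the start of the gene from RefSeq, build GRCm38.p6, on the gene's strand, 5′ to 3′. Hk2 is at chr6:82774455-82774704, Hkdc1 at chr10:62422458-62422707, Pfkp at chr13:6648772-6649021 and Pfkl at chr10:78009808-78010057, all on the minus strand. Capitals mark ACGTG or GCGTG read on either strand, the core letters of the motif of hypoxia-inducible factor, which is known as a regulator of glycolytic genes.
Hk2: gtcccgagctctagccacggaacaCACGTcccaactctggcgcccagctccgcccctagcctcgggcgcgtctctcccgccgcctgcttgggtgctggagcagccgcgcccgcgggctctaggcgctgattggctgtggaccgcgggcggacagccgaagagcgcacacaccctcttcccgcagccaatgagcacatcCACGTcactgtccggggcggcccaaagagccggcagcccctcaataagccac
Hkdc1: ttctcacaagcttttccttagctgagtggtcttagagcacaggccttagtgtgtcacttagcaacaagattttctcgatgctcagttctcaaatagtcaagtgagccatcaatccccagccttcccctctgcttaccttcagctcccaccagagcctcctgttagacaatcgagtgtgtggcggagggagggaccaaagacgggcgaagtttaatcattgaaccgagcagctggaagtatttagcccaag
Pfkp: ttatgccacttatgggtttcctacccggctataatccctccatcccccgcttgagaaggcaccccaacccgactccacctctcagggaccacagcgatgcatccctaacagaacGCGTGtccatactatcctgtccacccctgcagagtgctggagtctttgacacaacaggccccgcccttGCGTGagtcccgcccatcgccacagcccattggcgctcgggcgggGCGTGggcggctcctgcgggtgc
Pfkl: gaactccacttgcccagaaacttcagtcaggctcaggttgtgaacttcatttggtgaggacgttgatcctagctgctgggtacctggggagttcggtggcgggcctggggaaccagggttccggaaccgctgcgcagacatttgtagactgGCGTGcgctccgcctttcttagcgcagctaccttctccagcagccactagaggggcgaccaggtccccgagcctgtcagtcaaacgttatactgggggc
The Hk2 promoter held ACGTG 2 times, that of Pfkp held GCGTG 3 times, that of Pfkl held GCGTG 1 time, and that of Hkdc1 held neither. The promoters of the remaining isozymes, Hk1 and Pfkm, which were not called, are not shown. An Hk1 promoter held GCGTG 3 times and another held neither. A Pfkm promoter held ACGTG 2 times, and another held ACGTG and GCGTG 1 time each. A further Pfkm promoter, overlapping the latter, held GCGTG 1 time, and another held neither. Whether matches go with the courses of the genes was not tested. RefSeq promoters were found for 38 of the 39 enzymes, 57 in all. ACGTG on either strand was in 20 of the 57 (35.1%), against 16.6% of 32851 promoters of all genes, and GCGTG in 28 of the 57 (49.1%), against 28.2%. CACGTG, which contains ACGTG, was in 6 of the 57 (10.5%), against 6.02%. The enzymes' promoters also had a higher median GC content, 60.4% against 52.4% over all promoters, and the part of base composition in these shares was not tested. Some genes, such as Ogdh, have promoters with overlapping windows, so 1 site can be counted more than once among the 57. By gene, ACGTG was in a promoter of 13 of the 38, GCGTG of 21 and CACGTG of 4, with no count by gene over all promoters. A match is a description of letters and not a binding site.

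In the middle of glycolysis 1 enzyme gene rose and the others past the filter were not called. Gpi1, glucose-6-phosphate isomerase, lay between 13.02 and 13.30 over days 0 to 5 and was not called (adjusted p = 0.394). Aldoa, the aldolase that splits fructose bisphosphate, had log2 values of 13.88, 13.66, 13.00, 13.53, 13.57 and 13.33, with its lowest level on day 2. It was not called (adjusted p = 0.343), but without day 2 the adjusted p was 0.0409 with a slope of −0.090. Aldoa held at least 98.8% of the aldolase sum per kilobase on every day. The other aldolase, Aldoc, was below the filter, at 6.19 on day 5 against 7.70 on day 0. Tpi1 (NM_009415, chromosome 6, 124760609 to 124764314, minus strand), triosephosphate isomerase, was the exception. It had log2 values of 12.39, 12.19, 12.49, 13.26, 13.31 and 13.08, so days 3 to 5 stood above days 0 to 2, and it rose with a slope of 0.22 ± 0.061 (SE, limma adjusted p = 0.0247). Its adjusted p was 0.0562 without day 0, 0.0632 without day 1 and 0.0761 without day 4.

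From glyceraldehyde phosphate to pyruvate, 4 of 5 enzyme genes past the filter fell. Gapdh (NM_008084, chromosome 6, 125111869 to 125115601, minus strand), glyceraldehyde-3-phosphate dehydrogenase, often used as a reference gene, had log2 values of 16.18, 15.91, 15.57, 15.77, 15.50 and 15.11. It was lowest on day 5, 2.09-fold below day 0, with a slope of −0.18 ± 0.036 (SE, limma adjusted p = 0.00770). The adjusted p was 0.0632 without day 0 and 0.0612 with a correction for transcript length. Pgk1, phosphoglycerate kinase, which makes ATP, had log2 values of 13.21, 13.12, 13.22, 13.79, 13.70 and 13.26 and was not called (adjusted p = 0.315). Pgam1 (chromosome 19, 41986360 to 41993155, plus strand), phosphoglycerate mutase, fell. Its log2 values were 13.96, 13.57, 13.10, 13.14, 12.90 and 12.70, with a slope of −0.24 ± 0.036 (SE, limma adjusted p = 0.00376). Eno1 (chromosome 4, 149611305 to 149622982, plus strand), the common enolase, had log2 values of 14.60, 14.39, 14.23, 14.27, 13.51 and 13.05. Days 0 to 3 lay close together and days 4 and 5 below them, and the slope was −0.30 ± 0.051 (SE, limma adjusted p = 0.00539). Eno2, the neuronal enolase, was below the filter, at 8.90 on day 5 against 7.23 on day 0. Its share of the enolase sum per kilobase was 3.66% on day 5 against 0.407% on day 0.

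Pkm2 (NM_011099, chromosome 9, 59504414 to 59527182, plus strand) encodes pyruvate kinase, which makes pyruvate and ATP. Its log2 values were 15.91, 15.56, 15.07, 14.94, 14.68 and 14.46 on days 0 to 5, each day below the day before. Day 5 was 2.74-fold lower than day 0, with 18807 reads on day 5 and 32058 on day 0. The slope was −0.29 ± 0.029 (SE, limma adjusted p = 0.00220). The gene, named Pkm in current RefSeq, had a single row in the table, so the M1 and M2 splice forms were not separated. Pkm2 and Pfkp were the enzymes called with the same sign under each alternative run on them. Per kilobase, Gapdh was number 1 and Pkm2 number 2 among the 39 enzymes on day 5 and on day 0 alike. Gapdh, Pgam1, Eno1 and several other glycolytic genes have processed pseudogenes in the mouse genome, and how reads shared with such copies were counted is not stated, which leaves their levels uncertain.

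The lactate dehydrogenase genes, which interconvert pyruvate and lactate, had opposite excursions on day 2. Ldha, the muscle-type subunit, had log2 values of 14.22, 13.44, 12.77, 13.63, 13.47 and 13.01 on days 0 to 5. Ldhb, the heart-type subunit, had 12.29, 12.41, 13.14, 11.27, 11.51 and 11.61. Ldha was thus at its lowest on day 2 and Ldhb at its highest on that day. Neither followed a line (limma adjusted p = 0.221 for Ldha and 0.147 for Ldhb). On day 5 Ldha was 2.31-fold lower than on day 0. On day 3 Ldhb was 3.66-fold lower than on day 2, with 1242 reads on day 3 and 5137 on day 2. Per kilobase, Ldhb held 24.8%, 38.2%, 62.0%, 19.7%, 24.4% and 32.2% of the lactate dehydrogenase sum on days 0 to 5, more than Ldha on day 2 alone. Each of these day 2 values comes from 1 library.

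Among the 5 pyruvate branch genes of the 39, Pdk1, a kinase that inhibits pyruvate dehydrogenase, held the largest difference between day 5 and day 0. Pdk1 (NM_172665, chromosome 2, 71711328 to 71741914, plus strand) had log2 values of 12.12, 10.89, 8.88, 8.68, 9.47 and 9.12 on days 0 to 5. It was 8.01-fold lower on day 5 than on day 0, with 465 reads on day 5 and 2317 on day 0. The course flattened after day 2, and the slope of −0.56 ± 0.18 (SE, limma adjusted p = 0.0417) had the highest adjusted p of the 15 calls. Without day 0 the slope was −0.30 with an adjusted p of 0.280, and the adjusted p was 0.0978 without day 1, 0.0547 without day 3 and 0.0691 without day 4. Pdk3, another kinase of the complex, had log2 values of 8.56, 9.22, 10.70, 9.01, 9.08 and 8.92, with a single high day. On day 2 it was 2.79-fold higher than on day 1, and on day 3 it was 3.23-fold lower than on day 2. Its slope was near 0 (adjusted p = 0.965). Pdk2, which is not among the 39, was called upward with a slope of 0.70 ± 0.073 (SE, limma adjusted p = 0.00226) and had log2 values of 6.90, 6.93, 8.34, 8.90, 9.86 and 9.96. Over the kinase sum per kilobase, Pdk1 held 75.3%, 49.4%, 8.48%, 14.1%, 16.6% and 13.5% on days 0 to 5. Pdk3 held 76.8% on day 2, and Pdk2 held 54.7% on day 5 against 4.56% on day 0. The main kinase transcript thus differed between days 0, 2 and 5.

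Neither gene of the subunits that form the decarboxylating part of pyruvate dehydrogenase was called. Pdha1, the catalytic alpha subunit of pyruvate dehydrogenase that they phosphorylate, had log2 values of 12.02, 11.34, 11.26, 11.66, 11.37 and 11.20 (limma adjusted p = 0.173). Pdhb, its beta subunit, had 11.14, 10.79, 10.002, 10.09, 10.24 and 10.22 (adjusted p = 0.0731), and without day 2 the adjusted p was 0.0232 with a slope of −0.19. Pcx, pyruvate carboxylase, which feeds oxaloacetate into the cycle, had 10.45, 10.46, 9.26, 9.19, 9.83 and 9.97 (adjusted p = 0.358). It was 2.30-fold lower on day 2 than on day 1 and higher again on days 4 and 5.

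**Figure D3:**
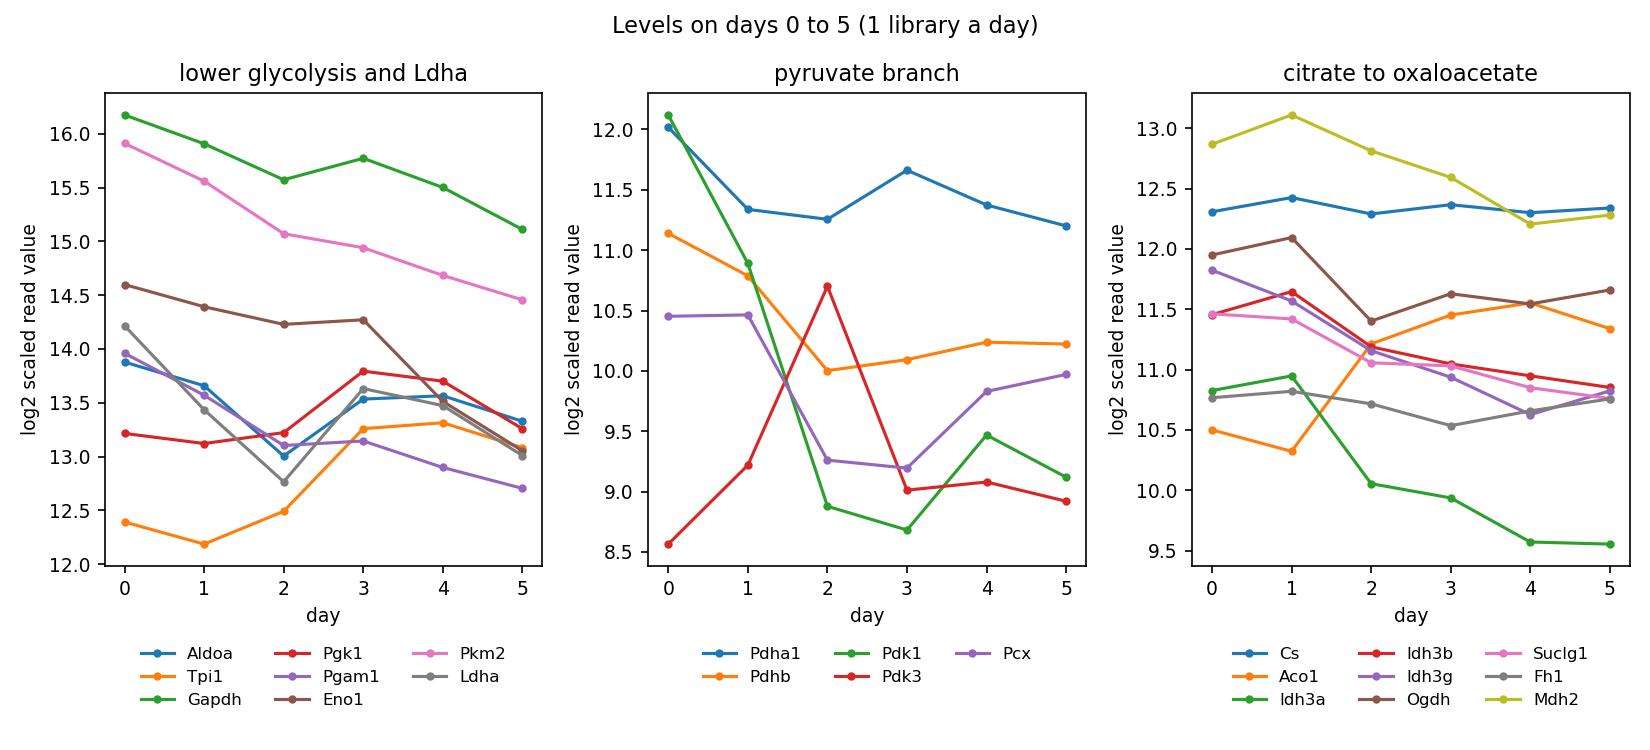
Log2 scaled read values on days 0 to 5, 1 library a day, for enzymes of lower glycolysis with Ldha, of the pyruvate branch and of the TCA cycle. Values were not divided by transcript length, so heights are not compared between genes. Pkm2 stands at 14.46 on day 5 against 15.91 on day 0, Pdk1 at 9.12 against 12.12, and Cs at 12.34 against 12.31.

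In the TCA cycle the 3 subunit genes of the NAD-dependent isocitrate dehydrogenase all fell. This mitochondrial enzyme makes alpha-ketoglutarate and is a control point of the cycle. Idh3a (NM_029573, chromosome 9, 54434317 to 54452469, plus strand), the catalytic alpha subunit, had log2 values of 10.83, 10.95, 10.06, 9.94, 9.57 and 9.55, with a slope of −0.30 ± 0.054 (SE, limma adjusted p = 0.00556). Idh3g (chromosome X, 71024301 to 71032236, minus strand), the gamma subunit, had 11.82, 11.57, 11.16, 10.94, 10.63 and 10.82, with a slope of −0.23 ± 0.043 (SE, limma adjusted p = 0.00651). In both genes days 2 to 5 lay below days 0 and 1. Idh3b (chromosome 2, 130105047 to 130110163, minus strand), the beta subunit, had 11.46, 11.65, 11.19, 11.05, 10.95 and 10.85, with a slope of −0.15 ± 0.037 (SE, limma adjusted p = 0.0163). Its adjusted p was 0.0591 without day 4, 0.0510 without day 5 and 0.0598 with the length correction. On day 5 Idh3a was 2.41-fold lower than on day 0, and Idh3g lay just short of 2-fold, at 1.999-fold lower.

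The NADP-dependent isocitrate dehydrogenases were not called. Idh1, the cytosolic enzyme, had log2 values of 10.15, 10.58, 11.14, 10.63, 10.86 and 10.97 on days 0 to 5 (limma adjusted p = 0.119), and without day 2 the adjusted p was 0.0215 with a slope of 0.14. Idh2, the mitochondrial enzyme, had 11.41, 11.08, 11.67, 11.46, 11.60 and 11.87 (adjusted p = 0.0993), and with the length correction the adjusted p was 0.0358. The per-kilobase sum of Idh1 and Idh2 was 0.55 log2 above day 0 on day 5, and that of the 3 NAD-dependent subunit genes was −0.88, below day 0. The difference between these sums was not tested.

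Citrate synthase, Cs, which opens the cycle, was the steadiest of the 37 enzymes over days 0 to 5, between 12.29 and 12.43 (limma adjusted p = 0.907). Aco1 (NM_007386, chromosome 4, 40090297 to 40146042, plus strand), the cytosolic aconitase that also acts as an iron-regulatory RNA-binding protein, rose. Its log2 values were 10.50, 10.32, 11.21, 11.45, 11.55 and 11.34, with days 2 to 5 above days 0 and 1 and a slope of 0.23 ± 0.066 (SE, limma adjusted p = 0.0249). The adjusted p was 0.0937 without day 0 and 0.0774 without day 4.

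In the later cycle Suclg1 and Mdh2 fell and the other enzyme genes were not called. Of the alpha-ketoglutarate dehydrogenase complex, Ogdh lay between 11.40 and 12.09, Dlst between 11.17 and 11.47, and Dld, a subunit shared with pyruvate dehydrogenase, between 10.12 and 10.47. None of the 3 was called (limma adjusted p = 0.208, 0.412 and 0.754 in that order). Of succinyl-CoA ligase, the shared alpha subunit gene Suclg1 (chromosome 6, 73198498 to 73226899, plus strand) fell. It had log2 values of 11.46, 11.42, 11.06, 11.03, 10.85 and 10.76, each day below the one before, with a slope of −0.15 ± 0.031 (SE, limma adjusted p = 0.00868). Its beta subunits for ATP, Sucla2 (9.68 to 9.95), and for GTP, Suclg2 (10.70 to 11.25), were not called (adjusted p = 0.701 and 0.131 in that order). Fh1, fumarate hydratase, lay between 10.54 and 10.82 (adjusted p = 0.631). Mdh2 (chromosome 5, 136254518 to 136266256, plus strand), the mitochondrial malate dehydrogenase, fell. Its log2 values were 12.87, 13.11, 12.81, 12.59, 12.21 and 12.28, with a slope of −0.17 ± 0.041 (SE, limma adjusted p = 0.0158). The adjusted p was 0.0542 without day 4 and 0.0916 with the length correction. Mdh1, its cytosolic counterpart, lay between 10.99 and 11.42 and was not called (adjusted p = 0.511).

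**Figure D4:**
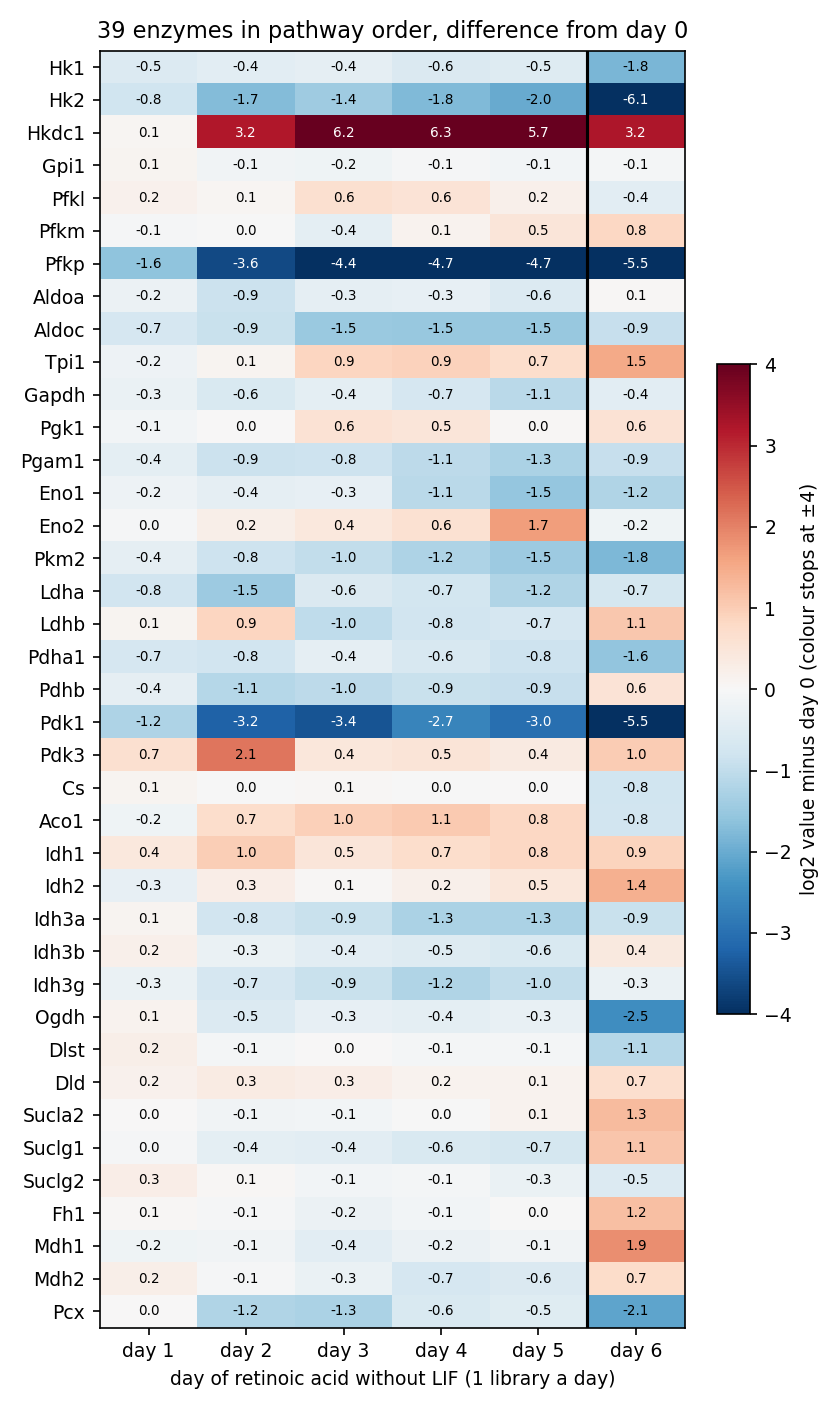
Log2 value minus day 0 for the 39 enzymes in pathway order on days 1 to 6, 1 library a day, with a line before day 6. Red marks higher and blue lower than day 0. Hkdc1 stands at 5.72 and Pfkp at −4.69 on day 5, and citrate synthase near 0.

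The size of the movement differed along the pathway. Over days 0 to 5 the range of a gene, its highest minus its lowest log2 value, had a median of 1.10 over the 14 glycolysis genes, 0.697 over the 16 TCA cycle and isocitrate genes and 0.915 over all 7242 genes. The range stayed within 2-fold in 6 of the 14 glycolysis genes (42.9%), in 13 of the 16 TCA cycle and isocitrate genes (81.2%) and in 55.3% of all genes. Those 16 include genes of the cytosolic enzymes Aco1, Idh1 and Mdh1, with ranges of 1.23, 0.989 and 0.422 in that order. These are counts of 1 library a day with no test of the difference.

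By single days, enzymes at least 2-fold apart were counted among the 37, by size and with no test. On day 1 against day 0, 2 were lower and 0 higher, beside 1.96% lower and 6.06% higher of all genes. They were Pfkp, 3.08-fold lower with a log2 counting interval of −1.74 to −1.50, and Pdk1, 2.35-fold lower with an interval of −1.34 to −1.13. On day 2 against day 1, 3 were lower and 2 higher, beside 10.5% of all genes in either direction. Pfkp was 3.98-fold, Pdk1 4.03-fold and Pcx 2.30-fold lower, and Hkdc1 was 8.63-fold and Pdk3 2.79-fold higher. On day 3 against day 2, Ldhb and Pdk3 were lower and Hkdc1 was 7.98-fold higher, 2 lower and 1 higher beside 3.87% of all genes. On day 4 against day 3 (0.801% of all genes) and on day 5 against day 4 (0.442%) the count was 0 of 37. The larger single-day differences of the enzymes lay in days 1 to 3, and the shares over all genes were likewise lowest on days 4 and 5. Below the filter, Eno2 was 2.08-fold higher on day 5 than on day 4.

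On day 5 against day 0, 9 of the 37 enzymes were at least 2-fold lower and 1 was higher, beside 14.1% lower and 20.9% higher of all genes. The higher one was Hkdc1. The lower ones were Pfkp, Pdk1, Hk2, Eno1, Pkm2, Idh3a, Pgam1, Ldha and Gapdh, of which 6 belong to glycolysis. The median gene level was 0.19 log2 higher on day 5 than on day 0 in the deposited scaling, and the counts were 12 lower and 1 higher after centring each library on its median. The courses were also tested for a bend, the square of day, over the same 6 libraries. With limma 0 of the 37 enzymes were called, beside 0.0414% of all genes (3 genes). At an unadjusted p under 0.05 the counts were 5 of the 37 enzymes and 1441 of all 7242 genes, a smaller share of the enzymes than of all genes. The 5 were Pfkp, Eno1, Pdhb, Pdk1 and Pcx. Without day 0 the bend was called for 2 enzymes, Hkdc1 and Pfkp, and without day 1 for 1, Pfkp.

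The neighbouring pathways were read from 7 further lists of 71 genes, of which 54 were in the table and 36 passed the filter. In these 36 genes, 5 rose (13.9%) and 11 fell (30.6%), beside 25.7% rising and 26.8% falling of all genes. The counts by list that follow stand beside the same shares of all genes, and no list was tested as a set. Of 5 genes of glucose and lactate transport, Bsg, a chaperone of lactate carriers, rose (0.26 ± 0.050 SE, limma adjusted p = 0.00734). The glucose carriers Slc2a1 and Slc2a3 were named after their values were seen. Slc2a1 had log2 values of 13.11, 14.69, 12.82, 13.46, 12.90 and 12.32 on days 0 to 5 and was not called (adjusted p = 0.176), nor was Slc2a3 (adjusted p = 0.610). Of 2 genes in the list of further glycolysis isozymes and regulators, Pfkfb3, which makes the activator of phosphofructokinase, rose (0.24 ± 0.065 SE, adjusted p = 0.0220 by limma). Of 1 gluconeogenesis gene past the filter, 0 were called. Of 4 genes of pyruvate entry, Pdk2 rose as given above and Dlat, the acetyltransferase core of pyruvate dehydrogenase, fell (−0.15 ± 0.040 SE, adjusted p = 0.0227).

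Of 8 other TCA cycle genes, 2 fell and 0 rose. Sdha, the flavoprotein of succinate dehydrogenase, was among them, with a slope of −0.12 ± 0.027 (SE, limma adjusted p = 0.0118). The other succinate dehydrogenase subunits Sdhb, Sdhc and Sdhd were not called (adjusted p = 0.150, 0.0691 and 0.699 in that order). Of 10 genes of citrate export, malic enzyme and glutamine use, 5 fell and 1 rose. Malic enzyme, Me1, which makes NADPH from malate in the cytosol, rose (0.45 ± 0.045 SE, limma adjusted p = 0.00219). The largest falls were in Got1, a cytosolic aspartate transaminase (−0.46 ± 0.055 SE, adjusted p = 0.00273), Glud1, glutamate dehydrogenase (−0.30 ± 0.066 SE, adjusted p = 0.0108), and Slc25a13, an aspartate-glutamate carrier (−0.30 ± 0.056 SE, adjusted p = 0.00658). Of 6 pentose phosphate genes, 3 fell and 1 rose. Transketolase, Tkt (−0.25 ± 0.044 SE, limma adjusted p = 0.00559), glucose-6-phosphate dehydrogenase, G6pdx (−0.18 ± 0.048 SE, adjusted p = 0.0218), and transaldolase, Taldo1 (−0.15 ± 0.034 SE, adjusted p = 0.0128), fell, and Rpe, ribulose-phosphate epimerase, rose (0.19 ± 0.044 SE, adjusted p = 0.0120).

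Day 6 stood apart, since its difference from day 5 followed transcript length more closely than the differences between earlier days did. Over all 7242 genes the Spearman correlation of day 6 minus day 5 with length was −0.78, and over the 37 enzymes it was −0.87. Both describe 1 pair of libraries across genes, which are not independent replicates. Of the 16 enzymes with transcripts under 2000 nucleotides, 16 were higher on day 6 than on day 5, as were 84.1% of all genes of that length. Of the 9 enzymes of 3000 nucleotides or more, 0 were higher, beside 6.28% of all genes. Of the 12 in between, 7 were higher, beside 31.5% of all genes, with a median difference of 0.060 over these enzymes and −0.56 over all genes of that length. The enzymes' short transcripts were thus above day 5 and the long ones below it, and no difference from other genes of like length was tested.

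At least 2-fold apart on day 6 against day 5 were 7 enzymes higher and 8 lower, beside 18.6% higher and 51.7% lower of all genes. After centring each library on its median the split was 23 higher and 4 lower. Mdh1 (log2 difference 2.00), Suclg1 (1.80) and Ldhb (1.76) were highest, and Hk2 (−4.03), Pdk1 (−2.49), Hkdc1 (−2.47) and Ogdh (−2.20) were lowest. Hk2 had 77 reads on day 6 and 2892 on day 5. The median difference was 0.35 over the enzymes and −1.11 over all genes, and with the length trend removed it was 0.42 over the enzymes and 0.015 over all genes. A direction on day 6 is therefore not given as a further point of the courses above.

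**Figure D5:**
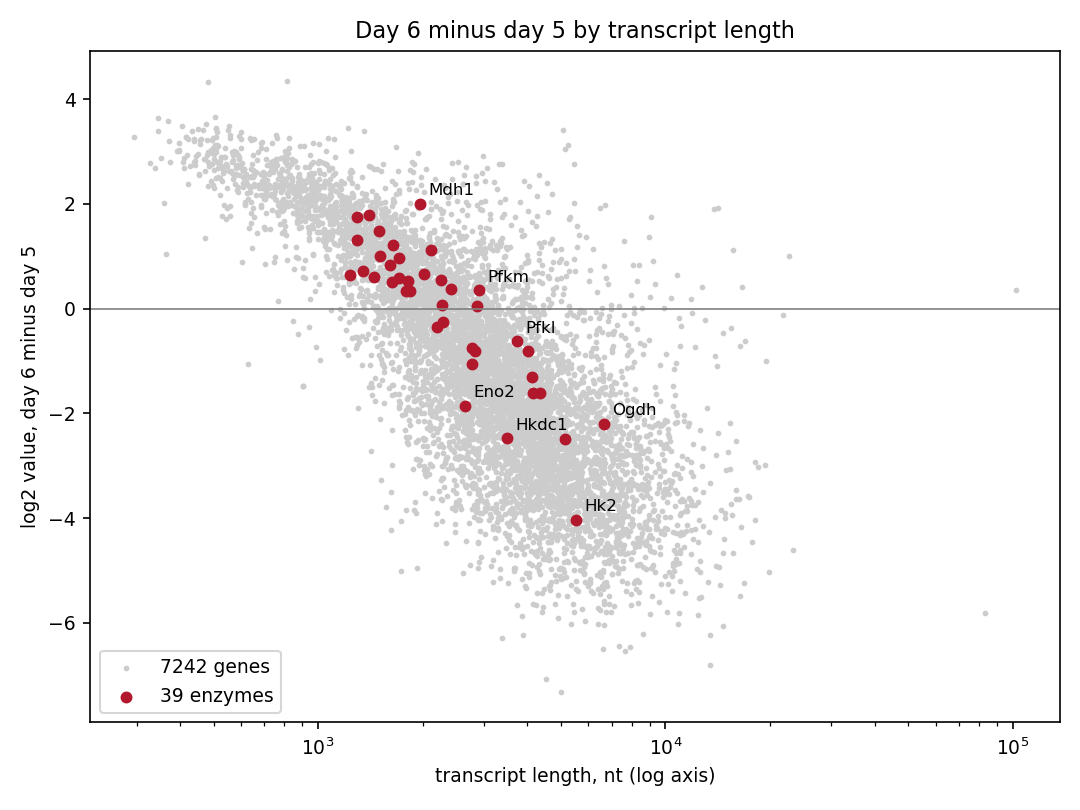
Log2 value on day 6 minus day 5 against transcript length in nucleotides on a log axis, for 7242 genes in grey and the 39 enzymes in red. Values fall with length in both, with Mdh1 at 2.00 and Hk2 at −4.03.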

How the data were processed

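The members and lists were chosen with earlier results of these data known. Reads had been aligned with BWA 0.7.3 to mm9, per the submitters' processing notes, with read counter, strand setting and scaling method not given in the sources used here. Deposited by the authors were log2 values for 15296 RefSeq transcripts. Raised from the log, 100% of the values up to 1000 reads were within 0.05 of a whole multiple of 1 read, so reads were recovered for counting intervals (Clopper-Pearson, 95%), which cover counting error only.

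Per symbol the transcript with the highest mean over days 0 to 6 was used. Genes whose mean log2 value over days 0 to 6 lay above 8.40, the 40th percentile, were kept. Day 6 thus took part in choosing the genes fitted over days 0 to 5. H6pd of the pentose phosphate list, at 9.71 on day 5 and 3.04 on day 6, had a mean of 8.26 and was not kept. A line on day over days 0 to 5 was fitted by limma 3.58.1 (R 4.3.3) with moderation along the mean, on 4 residual degrees of freedom, and the square of day on 3, after a check on simulated data. With 1 library a day, p-values measure the spread of single libraries about the line, and single days were compared by size. Length-corrected values used a lowess curve (fraction 0.3). All members are named, and of each other list up to 3 called genes a direction plus Dlat and Sdha to Sdhd, except 1 gene that is not reported here. The 15 alternatives changed the scaling, filter, pseudocount, transcript choice, fit, day 6 or single libraries. Gene coordinates are mm9 and promoter coordinates GRCm38.p6, counted from 1.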

Additional observations from a re-analysis of the deposited data

How the results depend on the processing

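Of 551 values of single enzymes and settings, 492 kept their direction and side of the threshold, 29 lost the call and 6 gained it. Another 23 changed direction with no call in either run, and 1, called as reported, reversed direction. With day 6 added, 0 enzymes rose and 2 fell (116 and 274 of all genes, 0 and 2 of the other pathway genes), and Suclg1 reversed to a slope of 0.063. Its adjusted p was then 0.736, and the cause was not tested. Leaving out 1 library gave 1 to 4 rising and 9 to 14 falling enzymes, 1038 to 2005 rising and 1240 to 1960 falling genes in all, 3 to 6 rising and 5 to 12 falling other pathway genes, and 0 to 2 enzymes and 0 to 349 genes with a bend. With no filter 3132 genes and 11 other pathway genes rose, and with the stricter filter 1191 and 2, as other numbers of genes were tested. The number of genes with a bend was 6 with day 6 added, 0 with quantile normalization, 1 with transcripts summed and 11 with no mean trend. For day 1 against day 0, 1 enzyme was lower with transcripts summed and 0 at a 4-fold limit, which left 3 lower on day 5 against day 0 and 1 lower over the steps from day 1 to day 5. For day 6 against day 5, median-centring gave 23 higher and 4 lower, quantile normalization 13 and 4, the 4-fold limit 1 and 4, and the length correction 6 and 1, where Mdh1 and Sucla2 were also among the 7 higher as reported, and Pfkm, Pfkp, Pfkl and Gpi1 were not. No paired analysis was possible because each day had 1 library. Depth limits Hkdc1 on days 0 and 1, at 21 and 25 reads, and Pdk1 and Pfkp on day 6, at 36 and 33 reads.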
